A study of Mus musculus with 2 samples.

Results

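The cartilage collagens measured here are the 7 genes that encode the chains of collagens II, IX, XI and XXVII, out of 20660 genes named on the arrays. They are Col2a1, Col11a1, Col11a2, Col27a1, Col9a1, Col9a2 and Col9a3, and they were chosen by name, as the genes whose RefSeq transcripts are listed for a probe on both arrays. Gene expression was measured in primary articular chondrocytes of 6-day-old C57BL/6J mice, the cells that make cartilage matrix, on 2 one-colour microarrays. The first array held RNA taken before loading. The second held RNA taken 24 h after the cells, grown in fibronectin-coated silicon chambers, had been stretched by 10% at 0.5 Hz for 30 min. Whether RNA of several animals was pooled is not given in the sources used here. With 1 array per time point no test was possible, no p-value is given, and precision is limited by the number of arrays. Since the control RNA dates from before the stretch and an unloaded 24 h culture was not analysed here, an effect of loading and one of a further 24 h in culture cannot be told apart.

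Collagen II is the main fibril-forming collagen of cartilage and gives the tissue its resistance to tension. Collagen XI, built from the products of Col11a1 and Col11a2 together with a chain encoded by Col2a1, lies within the same thin fibrils and limits their width, and collagen XXVII is a further member of the fibril-forming family that is made in developing cartilage. Collagen IX, a trimer of the products of Col9a1, Col9a2 and Col9a3, does not form fibrils itself but sits on the fibril surface and links it to other matrix molecules.

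On each array, all 7 genes were well above background. They were covered by 8 probes with 1 spot each, and 6 of the 7 genes had 1 probe. Values are the scanner software's processed intensity, in arbitrary units, and the log2 ratio is the intensity at 24 h against that before loading after each array was scaled to its own 75th percentile. These percentiles were almost equal, at 466.4 before loading and 466.2 at 24 h. The error of a log2 ratio is the software's own estimate for the 2 spots. It was 0.20 for every member, since the software assigned each member spot an error of 10%, and it covers variation within an array only. As a second measure of this variation, 29 probes that were at least as bright as the dimmest member gene were printed in 8 or more spots. Between the spots of one such probe, the log2 ratio had a median SD of 0.055 and a highest SD of 0.16. The brightness of a spot depends on its probe as well as on the amount of mRNA, so the ranks below describe spots and are not an order of mRNA amounts.

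Most cartilage collagen genes had nearly the same intensity on both arrays, with 2 exceptions: Col11a1 was 1.77-fold lower at 24 h and Col27a1 was 1.42-fold higher. At the scaling used, the log2 ratios of the other 5 genes were within 1 error of 0. In size, they lay between the median SD of 0.055 and the highest SD of 0.16 among repeated spots of bright probes. Of the 14222 detected genes, 6166 were more than 1 error from 0. Col9a2 was past 1 error at 0.31, 0.28 and 0.23 with quantile, loess and median scaling. Col9a1 was past it at 0.23 with quantile and 0.21 with loess scaling, and Col11a2 reached it at 0.20 with quantile scaling. Of the members, Col11a1 and Col2a1 had log2 ratios below 0, although that of Col2a1 was above 0 when the arrays were scaled by their medians, by quantiles or by loess. In comparison, 52.4% of the 14222 genes detected on both arrays and 50.6% of the 8564 abundant genes, those with a mean above the 75th percentile, were below 0. All 7 members were abundant, and 3328 of the 8564 abundant genes were more than 1 error from 0. A change of more than 1.5-fold downwards was measured for 1 of 7 members, against 5.84% of detected genes and 3.15% of abundant genes. A change of more than 1.5-fold upwards was measured for 0 of 7 members, against 3.66% of detected and 2.1% of abundant genes, and scaling by medians placed Col27a1 past this limit. These shares depend on the processing: 830 detected genes were lower and 520 higher by more than 1.5-fold, against 613 lower and 802 higher with scaling by medians, and 429 and 272 with normexp. No member passed 2-fold, whereas 1.83% of detected genes were lower by more than 2-fold and 0.668% were higher by more than 2-fold. The median log2 ratio of the 7 members was 0.069, beside -0.014 for all detected genes and -0.0035 for abundant genes. In RNA of a whole culture, fewer cells of a type and less RNA per cell cannot be told apart.

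**Figure D1:**
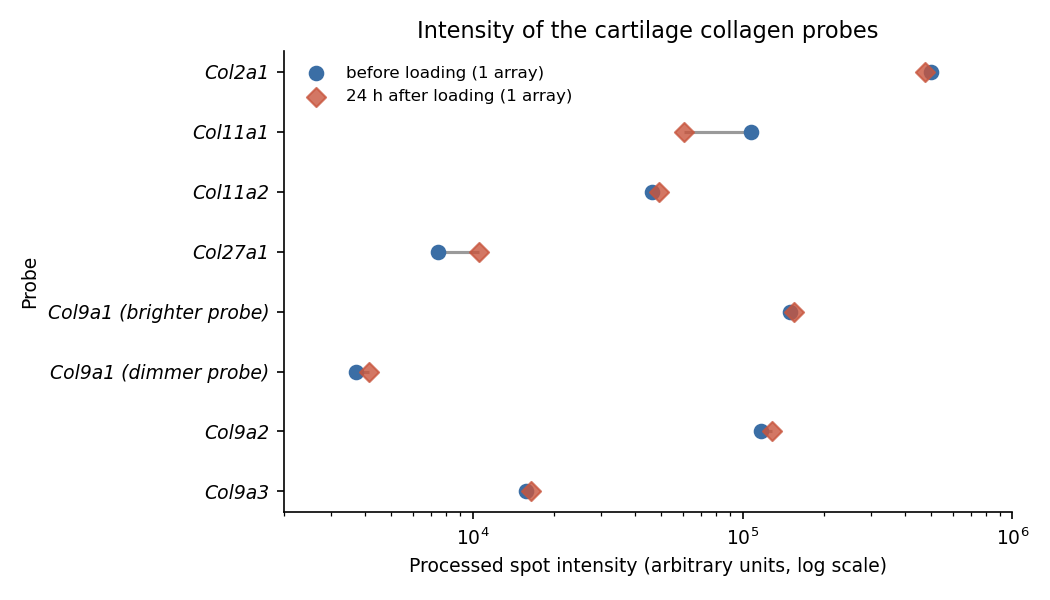
Processed spot intensity (arbitrary units, log scale) of the 8 probes of the 7 cartilage collagen genes on the array before loading (circles) and on the array at 24 h after loading (diamonds), 1 spot per probe and array. The points of a probe lie almost on each other for Col2a1, at 499543 and 474876, and are clearly apart for Col11a1, at 107657 and 60799, and for Col27a1, at 7427 and 10519.9.

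Among the genes of fibril-forming chains, Col2a1 (NM_001113515) encodes the chain of the collagen II homotrimer. Its intensity was 499543 before loading and 474876 at 24 h. The spot was among the brightest on both arrays, ranking 3 of 55678 probes before loading and 1 at 24 h, and at 60.3% of the scanner's saturation value before loading and 57.5% at 24 h its median pixel was not saturated. The 5 brightest probes before loading lay close together, at 493024 to 531844, and at 463355 to 474876 at 24 h. How far the intensity of such bright spots follows the amount of mRNA was not tested. The log2 ratio of Col2a1 was -0.072 with an error of 0.20, so the difference was smaller than its within-array error. In size it was above the median SD of 0.055 among repeated spots of bright probes and below the highest SD of 0.16. With an allowance of 2 errors on each side, the ratio lay between -0.48 and 0.34. Its direction depended on the scaling, since the log2 ratio ran from -0.074 to 0.12 over 10 other processing settings and was above 0 in 3 of them, after loess, quantile and median scaling.

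The 3 detected genes whose log2 levels on the 2 arrays were nearest to those of Col2a1 were Sparc, Glrx2 and Kctd14, at Euclidean distances of 0.018, 0.027 and 0.097. Sparc, which encodes a collagen-binding matrix protein, had intensities of 493407 and 474597. The likeness rests on 2 arrays and on the brightness of the spots. The probes of these 3 genes and of Col2a1 were among the 5 brightest on both arrays.

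Col11a1 (NM_007729) encodes a chain of collagen XI, and its intensity was 107657 before loading and 60799 at 24 h. It was the only member past 1.5-fold at the scaling used (scaling by medians added Col27a1), and its spot ranked 489 of 55678 before loading and 757 at 24 h. The log2 ratio was -0.82 with an error of 0.20, and an allowance of 2 errors placed it between -1.23 and -0.42. This size was also above the highest SD of 0.16 among repeated spots of bright probes. Of the other detected genes, 2.82% had a lower log2 ratio than Col11a1. Among the 188 detected genes with a higher mean level than Col11a1, whose median log2 ratio was -0.15, 3 had a ratio as low. In 9 other processing settings the log2 ratio of Col11a1 ran from -0.83 to -0.64 and stayed more than 1.5-fold lower.

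The value of Col11a1 rests on 1 probe and 1 spot. The spot carried no outlier flag on either array. Of the 29 spots within 100 µm of it, 4 were lower at 24 h by more than 2-fold and 1 was higher by that much. An area with at least 3 such spots of one direction is called disturbed here, a description that held for 27.6% of all spots, and a setting that leaves out these areas therefore gave no value for Col11a1. Of the 29 spots, 16 were well above background at both time points; 2 of the 16 were lower by more than 2-fold and 1 was higher, and their median log2 ratio was -0.015. The part of the position on the array in the value of Col11a1 was not tested.

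Col11a2 (NM_009926), the gene of another collagen XI chain, gave an intensity of 46392 before the stretch and 49136 at 24 h. The spot was slightly brighter at 24 h, and its rank was 999 before loading and 909 at 24 h. The log2 ratio of 0.084 was smaller than its error of 0.20 and ran from 0.082 to 0.20 in 10 other settings. The genes of these 2 collagen XI chains differed in their change beyond 2 errors: the log2 ratio of Col11a1 minus that of Col11a2 was -0.91 with an error of 0.29. A difference between 2 genes of the same arrays is the same under any scaling by 1 factor per array, and it was -0.84 after quantile normalization and -0.89 after loess. The difference of Col2a1, which also encodes a chain of collagen XI, from Col11a1 was 0.75 with the same error.

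Col27a1 (NM_025685) encodes the chain of collagen XXVII, and its intensity was 7427 before loading and 10519.9 at 24 h. It was the member with the highest log2 ratio, 0.50 with an error of 0.20, and its rank was 3536 before loading and 2742 at 24 h. An allowance of 2 errors placed the ratio between 0.095 and 0.91. Of the other detected genes, 5.24% had a higher log2 ratio. Among the 1647 detected genes with a higher mean level, 25 had a ratio as high and the median was -0.042. The log2 ratio stayed between 0.50 and 0.60 in 10 other settings and was past 1.5-fold in 1 of them, scaling by medians. Of the 28 spots within 100 µm of the Col27a1 spot, 0 were higher by more than 2-fold and 2 were lower.

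The genes of collagen IX were bright and changed little. Col9a1 (NM_007740), which encodes the chain whose amino-terminal part reaches out from the fibril, gave 149544 before loading and 155472 at 24 h as the intensity of its brighter probe, with a rank of 319 before loading. The dimmer probe of Col9a1, listed by the same transcript, had intensities of 3691 and 4136 and a rank of 5554. Both probes were somewhat brighter at 24 h, with log2 ratios of 0.057 and 0.17, and these differed by 0.11, which is less than the error of either. The dimmer probe lay in a disturbed area, with 4 of 28 surrounding spots lower by more than 2-fold. Which part of the transcript each probe binds was not analysed here.

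Col9a2 (NM_007741) gave a spot intensity of 117263 at the start and 128735 at 24 h, and ranked 445 before loading. Its log2 ratio was 0.14, within 1 error of 0 at the scaling used. The spot lay in a disturbed area too, with 3 of 25 surrounding spots higher by more than 2-fold and 1 lower. Of the 25 spots, 10 were well above background at both time points; 0 of these were higher by more than 2-fold, and their median log2 ratio was -0.092.

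Col9a3 (NM_009936) gave a spot intensity of 15724 at the start and 16492 at 24 h, and ranked 2163 before loading. Its log2 ratio was 0.069, so the 3 genes of the collagen IX trimer lay between 0.057 and 0.14 and did not differ beyond their errors. All 3 stayed above 0 in the other settings that gave them a value, and the highest values were 0.23 for Col9a1 and 0.31 for Col9a2, both after quantile normalization, and 0.17 for Col9a3 after median scaling.

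Very bright genes as a whole had log2 ratios a little below 0 at this scaling, and the collagen IX genes lay above most of them. Of the 94 detected genes with a higher mean level than Col9a1, whose median log2 ratio was -0.16, 91 had a ratio as low as Col9a1 or lower. For Col9a2 this held for 115 of 117 brighter genes, with a median of -0.16. For Col11a2 it held for 269 of 307 brighter genes, with a median of -0.12, and for Col9a3 for 736 of 964, with a median of -0.060.

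**Figure D2:**
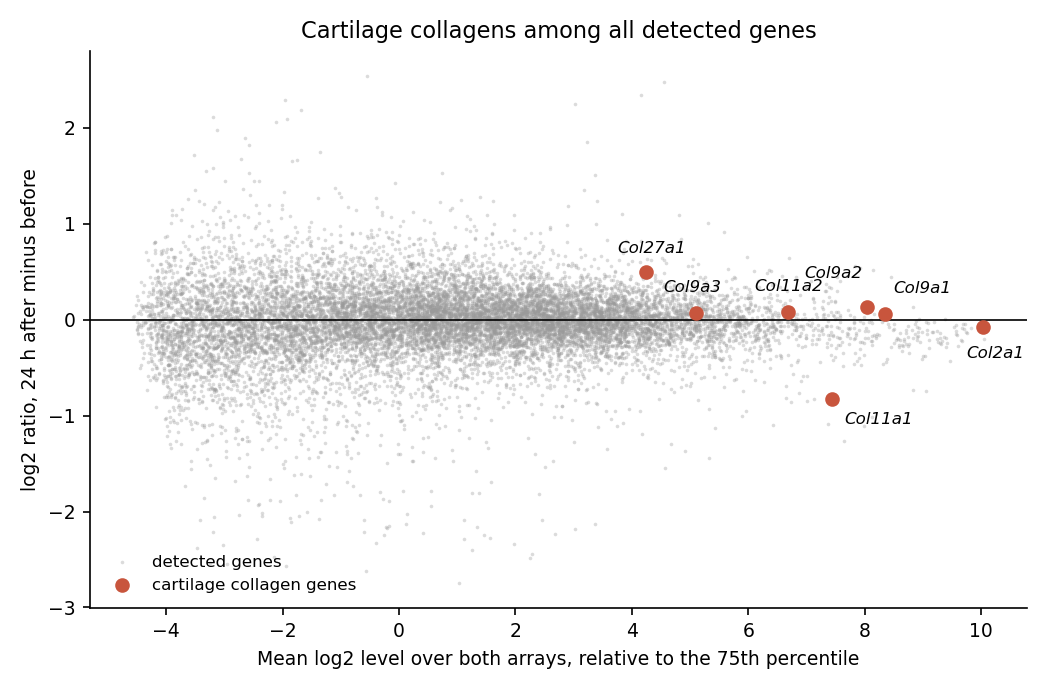
Log2 ratio of 24 h after against before loading (vertical axis) and mean log2 level over both arrays relative to the 75th percentile (horizontal axis) of 14222 genes detected on both arrays, each a grey point, with the 7 cartilage collagen genes in red. The members lie in the bright part of the plot, with Col11a1 at -0.82 below the other 6 and Col27a1 at 0.50 above them.

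Set against each other within the arrays, the 7 members give 21 pairs. In 6 pairs the log2 ratios differed by more than 2 errors of the difference, and all 6 of these pairs included Col11a1. These 6 pairs therefore share the 1 spot of Col11a1 and are not separate observations. How often pairs of other detected genes differ by that much was not analysed here. The largest difference, between Col11a1 and Col27a1, was -1.33 with an error of 0.29. Col2a1 and Col27a1 differed by -0.58, which is just within 2 errors, and by -0.61 with normexp, which is past them and makes 7 pairs. With disturbed areas left out, 5 members had a value and 0 pairs differed by more than 2 errors.

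**Figure D3:**
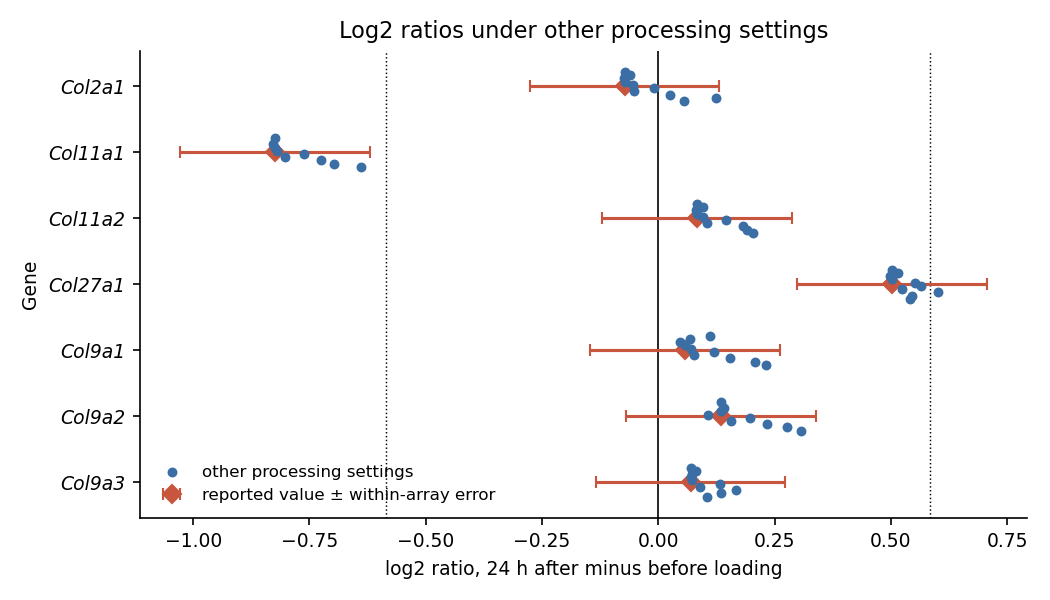
Log2 ratio of 24 h after against before loading of the 7 cartilage collagen genes, as reported (diamonds, bars are the within-array error) and in the other processing settings (blue points), with dotted lines at 1.5-fold. Col11a1 lies below the lower dotted line in all 9 settings that gave it a value, Col2a1 falls on either side of 0, and the other 5 genes lie above 0 throughout.

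Other collagens were compared to place these values. Of 37 other collagen genes, 36 had a probe and 28 were detected on both arrays, 14 with a log2 ratio below 0 and 14 above, with a median of -0.013. Past 1.5-fold, 3 were lower and 3 were higher, beside 5.84% and 3.66% of all detected genes, of which 52.4% were below 0. Col10a1, the collagen of hypertrophic cartilage, had intensities of 18910 before loading and 6485 at 24 h, a log2 ratio of -1.54 (error 0.20) that was lower than that of any member. The other genes past 1.5-fold were dimmer than every member: Col17a1 (-2.35), Col7a1 (-0.65), Col22a1 (1.27), Col8a1 (0.86) and Col4a2 (0.61). With normexp background correction, Col17a1 was at -1.06. Col7a1 was then at -0.43 and Col8a1 at 0.36, both within 1.5-fold, and median scaling brought Col7a1 within it too. Among the collagens of bone and fibrous tissue, the log2 ratios were -0.040 for Col1a1, 0.013 for Col1a2 and 0.13 for Col3a1. That of Col1a1 was above 0 with quantile, loess, median and spike-in scaling. Some genes of collagens V and VI, named after their values were seen, lay farther from 0, among them Col5a3 at 0.45 and Col6a3 at -0.41. Named likewise, Col8a2 was at 0.48 on the probe that represents it, but its second detected probe gave -1.34 and the mean over probes was -0.43, and Col26a1, at 0.52, was past 1.5-fold with median scaling at 0.62 and with spike-in scaling at 0.59.

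**Figure D4:**
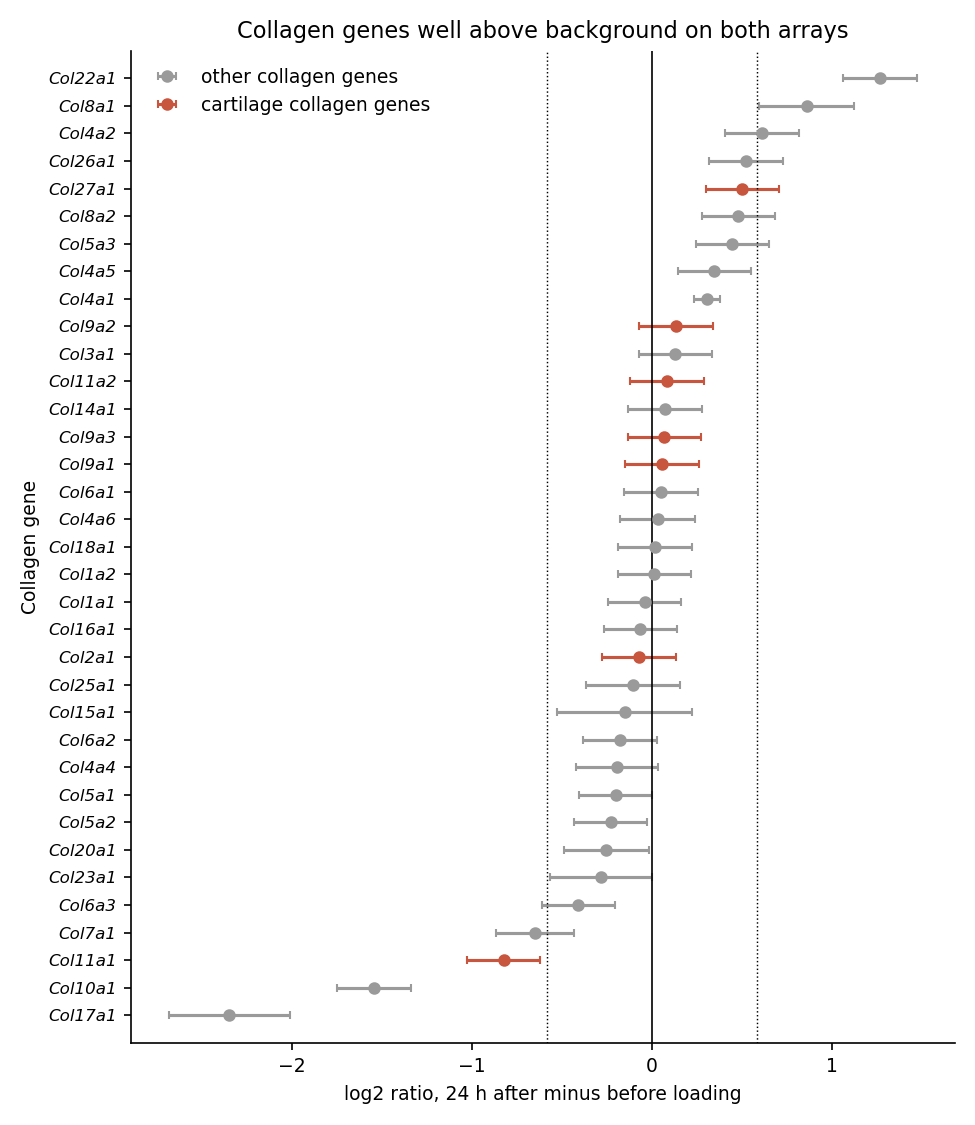
Log2 ratio of 24 h after against before loading of the 35 collagen genes detected on both arrays, with bars for the scanner software's within-array error and dotted lines at 1.5-fold; cartilage collagens are in red. Col11a1 has a higher ratio than Col17a1 and Col10a1 and a lower one than all others, and the other cartilage collagens lie between -0.072 and 0.50.

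Of the 12 regulators of cartilage collagen genes, all detected, 1 was lower by more than 1.5-fold and 0 were higher, beside 5.84% and 3.66% of all detected genes. Sox9, the transcription factor that turns on Col2a1, Col11a2 and Col9a1 in chondrocytes, had intensities of 10005 before loading and 11614 at 24 h, a log2 ratio of 0.22 with an error of 0.07 over several spots. Its partners Sox5 and Sox6 had log2 ratios of -0.24 and -0.044, and that of Sox6 was above 0 with median scaling, spike-in scaling and normexp. A dimmer second probe of Sox5 gave -0.56. Of the 12 regulators, 6 were below 0 and 6 above, with a median of 0.036, beside 52.4% of all detected genes below 0. The regulator past 1.5-fold was Arid5a, a cofactor of Sox9, at -0.73 with intensities of 5029 and 3038.

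Other proteins lie beside the collagens in the fibril and the matrix. Of 12 detected genes of such fibril partners, 5 were below 0 and 7 above, with a median of 0.032, beside 52.4% of all detected genes below 0. Acan, which encodes the large proteoglycan aggrecan, had intensities of 71350 before loading and 89998 at 24 h, a log2 ratio of 0.34, and Hapln1, which encodes the link protein, had 0.40. Chad, which encodes the collagen-binding protein chondroadherin, was past 1.5-fold, with intensities of 614 and 338 and a log2 ratio of -0.86. Of the 12 genes, 1 was thus lower and 0 were higher by more than 1.5-fold, beside 5.84% and 3.66% of all detected genes. Matn1 and Fmod, named after their values were seen, were within 1.5-fold at 0.56 and 0.51 and past it with quantile normalization at 0.70 and 0.61, loess at 0.69 and 0.60, and median scaling at 0.65 and 0.61. Matn1 was also past it at 0.62 with spike-in scaling and at 0.59 with normexp.

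The machinery that makes and assembles collagen was for the most part within 1.5-fold. So were most detected genes, of which 5.84% were lower and 3.66% higher by more than 1.5-fold. The share of detected genes below 0 was 52.4% at the scaling used and 36.9% with median scaling. Of 23 genes for hydroxylation, glycosylation, folding and export of procollagen, 7 were below 0 and 16 above, with a median of 0.11, and P3h2, which encodes a prolyl 3-hydroxylase, was past 1.5-fold at -0.71. Fkbp14, named after its values were seen, was at 0.50, with 0.77 on its second probe, 0.63 as the mean over probes and 0.60 with median scaling. Of 11 detected genes of propeptide proteases, their enhancers and lysyl oxidases, 5 were below 0 and 6 above, with a median of 0.0014. Past 1.5-fold, 2 of the 11 were lower and 0 were higher, beside the shares of detected genes given above. The lysyl oxidase genes Loxl4 (-0.95, from 7627 to 3939) and Lox (-0.61, from 1379 to 904.7) were past 1.5-fold, and Lox was within it at -0.51 with median scaling and -0.52 with normexp, and also with spike-in scaling and as the mean over its probes. A second probe of Loxl4 gave -0.56. Loxl2 and Loxl1, named after their values were seen, were within 1.5-fold at -0.38 and 0.56. A second probe gave -0.90 for Loxl2 and 0.64 for Loxl1, the mean over probes placed Loxl2 at -0.80, and scaling by medians placed Loxl1 at 0.66.

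At the scaling used, the detected genes of collagen breakdown and binding were within 1.5-fold. Among all detected genes, 5.84% were lower and 3.66% higher by more than 1.5-fold, and 52.4% were below 0. Of 9 genes of collagen-degrading proteases, 5 were detected, 1 below 0 and 4 above, with a median of 0.19. Mmp13, which encodes the main collagenase acting on collagen II, had intensities of 617 before loading and 867 at 24 h, a log2 ratio of 0.49 with an error of 0.20, and scaling by medians placed it just past 1.5-fold at 0.59. Mmp14, named after its values were seen, was at 0.58 and at 0.68 with scaling by medians, and was past 1.5-fold in some other settings too. Of 5 detected collagen receptor genes, 4 were below 0 and 1 above, with a median of -0.12. A dimmer second probe of Ddr2, also named after its values were seen, gave -0.64, against -0.16 on the brighter one.

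Cell type markers were read for their level beside the members. All 14 chondrocyte markers were detected, 8 below 0 and 6 above, with a median log2 ratio of -0.070, and their summed intensity was 784129 before loading and 834265 at 24 h. Comp was the brightest of them, with intensities of 205261 and 179115. With scaling by medians, Epyc at 0.0009 and Sox6 at 0.054 were above 0. More chondrocyte markers were then above 0 than below. Of 10 hypertrophic chondrocyte markers, all detected, 8 were below 0, and 5 were more than 1.5-fold lower: Ibsp (-2.06), Col10a1 (-1.54), Ihh (-1.30), Alpl (-0.89) and Phospho1 (-0.61). Among all detected genes, 52.4% were below 0 and 5.84% were more than 1.5-fold lower. The median of the 10 hypertrophic markers was -0.54, and their summed intensity, to which Col10a1 gave the most on each array, went from 30956 to 16804. Mmp13 at 0.49 and Pth1r at 0.062, the latter named after its values were seen, were above 0. The part of these markers in the change of Col11a1 was not tested. With normexp, Ibsp was at -1.36, and Phospho1 was within 1.5-fold at -0.16, as it was with median, spike-in, quantile and loess scaling.

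Of 8 fibroblast markers, all detected, 2 were below 0 and 6 above, beside 52.4% of all detected genes below 0. The median of the 8 markers was 0.11, and their summed intensity was 133520 before loading and 134698 at 24 h. Col1a2 was the brightest of them, and the dim marker Dpt had a log2 ratio of 2.10, from an intensity of 59.4 to 253, and 1.34 with normexp. Markers of further cell types were for the most part dim. The 5 macrophage markers summed to 4138 and 3935, most of it from Csf1r, with 2 below 0 and a median of 0.086, and the dim Ptprc had 1.14, or 0.40 with normexp. Csf1r was at -0.15, but its second detected probe gave 0.20 and the mean over its probes was 0.11. Of 4 endothelial markers 2 were detected, 1 below 0, and the list summed to 12895 and 12520.3, nearly all from Kdr at 12774 and 12375, and Cdh5 and Tek were not well above background. The other probe of Kdr failed to be well above background on 1 or both arrays. Among osteoblast markers, Bglap2 was the brightest with intensities of 899 and 1219, Sp7 was at -0.64, or -0.41 with normexp and within 1.5-fold with median, spike-in, quantile and loess scaling, and Dmp1 was not well above background. The 6 skeletal muscle markers, of which 5 were detected, summed to 2312 and 2170.2 with Acta1 the brightest. Myh8 was at 1.15, or 0.63 with normexp, Myh3 at 0.64, or 0.50 with normexp and within 1.5-fold as the mean over its probes, and Tnnt3 at -0.78, and Ckm was not well above background. Among erythroid markers, Hba-a2 was the brightest with intensities of 284 and 253, and Alas2, Hbb-bs and Hbb-bt were not well above background.

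Promoter windows are shown for the 3 members that show the spread of the change, Col11a1 with the lowest log2 ratio, Col27a1 with the highest, and Col11a2, whose product joins that of Col11a1 in collagen XI. RefSeq windows of the 250 bases before a transcription start, on assembly GRCm38.p6, were used for 5 of the 7 members, with 2 windows for Col9a1. Those of Col2a1 and Col9a3 were not analysed here. Each window was searched on both strands, overlaps included, for a TATA box (TATAAA), a GC box (GGGCGG) and a pair of motifs bound by SOX proteins (AACAAT and ACAAAG). Of 32851 windows, 12.4% held TATAAA, 32.7% held GGGCGG, 9.42% held AACAAT and 16.5% held ACAAAG. Matches are in capitals, and CCGCCC is GGGCGG on the other strand. The windows lie on the plus strand at chr3:114030290-114030539 for Col11a1, chr4:63215162-63215411 for Col27a1 and chr17:34038888-34039137 for Col11a2.
Col11a1: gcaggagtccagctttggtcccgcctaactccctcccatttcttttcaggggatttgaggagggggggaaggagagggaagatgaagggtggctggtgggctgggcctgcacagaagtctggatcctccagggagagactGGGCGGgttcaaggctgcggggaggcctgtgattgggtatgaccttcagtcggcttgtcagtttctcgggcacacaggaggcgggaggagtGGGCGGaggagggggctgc
Col27a1: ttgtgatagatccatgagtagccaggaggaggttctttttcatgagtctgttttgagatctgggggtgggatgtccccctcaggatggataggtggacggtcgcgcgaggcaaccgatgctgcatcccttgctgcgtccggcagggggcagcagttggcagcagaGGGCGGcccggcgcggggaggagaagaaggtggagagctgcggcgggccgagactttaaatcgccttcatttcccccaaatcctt
Col11a2: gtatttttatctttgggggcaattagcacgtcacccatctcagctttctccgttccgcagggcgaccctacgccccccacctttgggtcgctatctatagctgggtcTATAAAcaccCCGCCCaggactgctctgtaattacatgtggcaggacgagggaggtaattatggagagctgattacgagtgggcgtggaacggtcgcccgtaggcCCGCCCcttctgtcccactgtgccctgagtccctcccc
The window of Col11a1 held 2 GC boxes, that of Col27a1 held 1, and that of Col11a2 held 2 GC boxes and 1 TATAAA match. This TATAAA match lay 143 to 138 bases before the start. In the 6 windows of the 5 members, GGGCGG was found in 4, TATAAA in 1, and the motifs AACAAT and ACAAAG in 0. A match describes letters in the window and is not a site of binding.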

How the data were processed

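Chondrocyte RNA of both time points was labelled with Cy3 and hybridised to 2 SurePrint G3 Mouse arrays of 1 slide, 1 per time point. The authors deposited the processed intensity of each spot from Agilent Feature Extraction 10.10.1.1, after background subtraction and with no normalization between arrays. The scanner model in the file headers differs from that in the methods.

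Of 59305 spots other than controls, 255 with an outlier flag on at least 1 array were not used. Spots of one probe were averaged on the log2 scale, which gave 55678 probes, and the 75th percentile of each array was subtracted. Accessions, without versions, were named from RefSeq (assembly GRCm38.p6, names only); 27235 probes matched, giving 20660 genes. The probe with the highest mean represents a gene. Detected genes are those whose representing probe exceeded background well on both arrays; 59.1% of spots did so before loading and 57.7% at 24 h. Saturation was met by 0 spots.

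The members and the gene lists were chosen with earlier results of these data known. Named genes are all members; Sox9, Sox5, Sox6, Acan, Hapln1, Col10a1, Col1a1, Col1a2, Col3a1 and Mmp13; of each list the detected genes past 1.5-fold, at most 6 by size; the brightest gene of each marker list; and the 3 genes nearest to Col2a1. All other genes named in the text were chosen after their values were seen, and some listed genes are not reported here. A search of protein sequences was planned and was not run.

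A total of 13 processing alternatives were run, 10 of them on the members: scaling by quantiles, loess, medians, detected probes or spike-in controls; normexp on the median spot signal with an offset of 50; other choices of probe and flag; the authors' table; and areas with at least 3 spots changed past 2-fold in one direction within 100 µm left out. Calculations used Python 3.11.15, numpy 2.4.6, pandas 2.3.3 and scipy 1.17.1, with limma 3.58.1 in R 4.3.3 for normexp, loess and quantile normalization, and matplotlib 3.10.9 for plots. The counting of genes past a fold was checked on simulated data. In these all probes had the same noise, and the changed genes differed by 2-fold. The check does not show how brightness or position on the array affects the counts.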

Additional observations from a re-analysis of the deposited data

How the results depend on the processing

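The log2 ratio of each cartilage collagen gene moved by less than its within-array error in every setting that gave a value. Leaving out disturbed areas gave no value for Col11a1 and Col9a2, and so no count or median of the members. Of other named genes past 1.5-fold at the scaling used, Chad, P3h2, Alpl and Ptprc had no value in that setting either. The median log2 ratio of the members stayed between 0.070 and 0.20 in 9 settings. The number of members below 0 went from 2 to 1 with quantile, loess and median scaling, because Col2a1 was then above 0. Among all detected genes, 260 were more than 2-fold lower, 95 more than 2-fold higher, 830 more than 1.5-fold lower, 520 more than 1.5-fold higher and 7450 below 0. In this order, the first 4 counts became 117, 38, 429 and 272 with normexp, and 983, 492, 2177 and 1305 with no filter on dim probes. With genes well above background on at least 1 array, 507 were more than 2-fold lower and 192 higher. Abundant genes only, which are fewer, gave 77, 27, 270, 180 and 4337. With median scaling 802 genes were more than 1.5-fold higher. Higher genes made up 26.8% of those past 2-fold, against 38.8% with median scaling, and 38.5% of those past 1.5-fold, against 56.7% with median scaling and 50.3% after scaling to spike-in controls. The share of genes below 0 was 52.4%, and 36.9% and 42.3% with these 2 scalings. The cause was not tested. No scaling moved the median of all detected genes by more than 0.098. Signal over background did not limit the members, since the dimmest probe was 94.6 times its local background before loading. No paired analysis was possible because each time point has 1 array.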
